A study of Mus musculus with 4 samples.

Results

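The erythroid precursor genes Gata1, Klf1, Hemgn, Epor, Alas2, Slc4a1, Car1 and Ahsp were followed in muscle progenitor cells of aged and young mice. They were chosen by gene symbol, as a set of 8 genes that mark red cell precursors, and 7 of the 8 were found among 19505 tested genes. Ahsp, whose product stabilises alpha globin, was not analysed here. Each measured gene was read from its probe set with the highest mean over the 4 arrays.

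Cells had been released from muscle of C57Bl/6 mice with collagenase and sorted as positive for both CD29 and ITGA7, integrins found on satellite cells. The aged group came from mice of 2 years and the young group from mice of 5 weeks, with 2 whole-transcript arrays per age and no genotype or treatment given. The labels do not say whether arrays came from separate animals or from pools, and the sex is not given in the sources used here, so the p-values cover the spread between arrays only, which may be technical. Of 14 measured muscle progenitor markers, all 14 lay above the median of the intron controls on every array. Intron controls are probe sets placed in introns, whose level serves here as a measure of background. Their median is a low mark, since only 44.5% to 49.5% of all tested probe sets lay under it on an array. By the stricter 95th percentile of the intron controls, Pax7, Myod1, Cdh15 and Msc lay under the mark on every array. The other muscle markers exceeded it on at least some array.

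Red blood cells arise in the bone marrow from progenitors that also give rise to megakaryocytes. GATA1 and KLF1 are the transcription factors that switch on the erythroid programme, erythropoietin acting through its receptor EPOR keeps the precursors alive, and the maturing cells then fill with haem, globin and membrane proteins. Most of the 8 serve as markers of blood precursors and not of muscle, although EPOR is also known from myoblasts. The question put to the data was whether they were higher in the arrays of the 2-year mice, as RNA from marrow cells would make them.

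Promoter sequences are shown because GATA1, itself a member, is known to act on other erythroid genes. GATA factors bind short sites around the letters GATA, and the windows of 250 bases before to 50 bases after the gene start (RefSeq, GRCm38.p6) were searched for AGATAA and TGATAA on both strands. Windows were at hand for 5 of the 7 measured genes, and 4 of these held one of the motifs before or after the start, against 18.6% of all 32851 windows. A stretch upstream of the start of each of the 4 genes is printed 5′ to 3′ on the gene's strand, with the match in capitals. On that strand TTATCT and TTATCA are the reverse complements of AGATAA and TGATAA.
Hemgn (chr4:46404184-46404226, minus strand): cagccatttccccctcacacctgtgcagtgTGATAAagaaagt
Klf1 (chr8:84901872-84901937, plus strand): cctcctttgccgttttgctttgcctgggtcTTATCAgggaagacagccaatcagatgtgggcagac
Epor (chr9:21963595-21963660, minus strand): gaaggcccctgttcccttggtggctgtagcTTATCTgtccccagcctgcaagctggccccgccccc
Alas2 (chrX:150547301-150547366, plus strand): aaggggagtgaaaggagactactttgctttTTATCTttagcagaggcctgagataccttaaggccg

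Hemgn held a further match, AGATAA, at base 29 after the start. The window of Gata1 itself held neither motif. The letters CACCC, the core of the sites bound by KLF1, were found on either strand in 4 of the 5 windows (Klf1, Epor, Gata1 and Alas2) and in 57.5% of all windows, so that motif was common everywhere. A match in letters is a description of the window and not a binding site.

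No erythroid gene passed the adjusted limma test between the ages, and neither did any other tested probe set. All 7 genes were read at levels where intron controls also lay. None of the 7 passed at an adjusted p under 0.05, where 0% of all 19572 tested probe sets passed. At an unadjusted p under 0.05 none of the 7 was higher in aged cells, against 3.36% of all probe sets, and none was lower, against 3.99%. With shares this small, 0 of 7 says little about the members. The 7 differences ran from -0.09 for Epor to 0.56 for Slc4a1, 5 of them positive, with a median of 0.12 beside -0.0013 over all probe sets. The values are on the log2 scale of the deposited table, whose range of 2.08 to 19.4 is wider than a plain scan usually gives, so differences are not turned into folds.

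Of the 28 readings of the 7 genes, 19 (67.9%) were under the intron control median of their array, beside 48.0% of the readings of all tested probe sets. None lay above the 95th percentile of the intron controls. Klf1, Epor, Hemgn and Car1 were below that median on all 4 arrays, and Gata1 and Slc4a1 above it on all 4. The readings stood between the 23.3rd and the 74.0th percentile of the intron controls. The 95th percentile is a demanding mark here, at 11.0 to 11.8 log2 units, since between 10.3% and 15.3% of all tested probe sets exceeded it on an array. In bulk samples such as these, fewer cells of a type and less RNA per cell cannot be told apart.

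**Figure D1:**
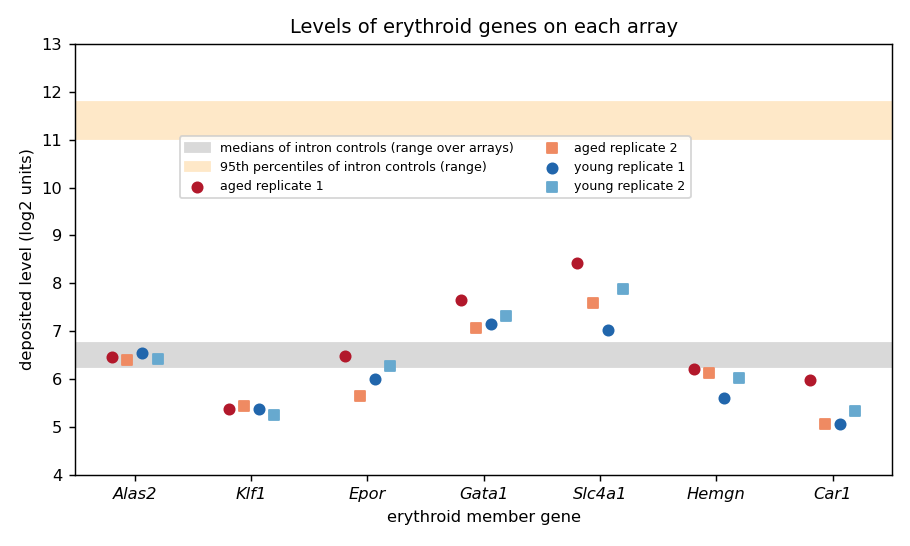
Deposited log2 level (y axis) of the 7 erythroid genes (x axis), with 1 point per array. The grey band spans the medians of the intron controls over the 4 arrays (6.25 to 6.76) and the pale band their 95th percentiles (11.0 to 11.8); every erythroid reading lies below the pale band and the aged and young points overlap for all genes but Hemgn.

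Among the regulators, Gata1 encodes the zinc finger factor that erythroid and megakaryocyte precursors depend on. Its level was 7.65 and 7.06 on the aged and 7.15 and 7.31 on the young arrays. The aged arrays thus held both the highest and the lowest reading. The difference was 0.12 ± 0.33 (SE, n = 2 per age; 95% interval -0.70 to 0.95; limma adjusted p of 0.963). Without aged replicate 1 it was -0.17.

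Klf1, the erythroid Krüppel-like factor that activates the adult beta globin gene, stood at 5.38 and 5.45 on the aged and 5.38 and 5.26 on the young arrays. Aged replicate 1, at 5.380, lay just below young replicate 1, at 5.384, so the groups overlapped. The difference was 0.09 ± 0.28 (SE; 95% interval -0.61 to 0.79; limma adjusted p of 0.970).

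Hemgn encodes hemogen, a nuclear protein of blood precursors. It was the only member whose aged readings, 6.22 and 6.13, both lay above both young readings, 5.60 and 6.02. The difference was 0.36 ± 0.31 (SE; 95% interval -0.40 to 1.12; limma adjusted p of 0.858). Leaving out young replicate 1 gave 0.15, leaving out young replicate 2 gave 0.57, and 0.077 was left with each array centred on its intron controls. That 1 of 7 members had such a gap, and none the opposite gap, stands beside 18.2% of all probe sets with the aged arrays on top and 18.4% with the young arrays on top. Among the intron controls, in whose range the members lay, 24.2% had the aged arrays on top. Without aged replicate 2, 5 of the 7 had their remaining aged reading above both young ones, and leaving out any other single array gave 2. A gap arises more easily with fewer arrays, so the 18.2% does not apply to these counts. Their share over all probe sets was not computed.

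Epor, the erythropoietin receptor gene, was read at 6.47 and 5.64 on the aged and 6.01 and 6.28 on the young arrays. The aged readings lay on either side of the young ones. The difference was -0.09 ± 0.38 (SE; 95% interval -1.03 to 0.85; limma adjusted p of 0.981), with 0.33 without aged replicate 2 and 0.05 without young replicate 2.

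Alas2 encodes the erythroid form of the enzyme that starts haem synthesis, and its RNA is abundant in red cell precursors. Its level was 6.45 and 6.40 on the aged and 6.54 and 6.43 on the young arrays, so the 4 arrays nearly coincided. The difference was -0.06 ± 0.28 (SE; 95% interval -0.76 to 0.64; limma adjusted p of 0.984).

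Slc4a1 encodes band 3, the anion exchanger of the red cell membrane, and had the largest difference of the 7. It was read at 8.42 and 7.58 on the aged and 7.02 and 7.88 on the young arrays, so the groups overlapped. The difference was 0.56 ± 0.45 (SE; 95% interval -0.56 to 1.67; limma adjusted p of 0.853). It was 0.13 without aged replicate 1 or without young replicate 1, and was 0.98 without aged replicate 2 or without young replicate 2.

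Car1, the carbonic anhydrase 1 gene of red cells, was read at 5.98 and 5.05 on the aged and 5.06 and 5.34 on the young arrays. Aged replicate 1 was the high array and aged replicate 2 the lowest. The difference was 0.32 ± 0.40 (SE; 95% interval -0.67 to 1.30; limma adjusted p of 0.911), and -0.15 without aged replicate 1.

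**Figure D2:**
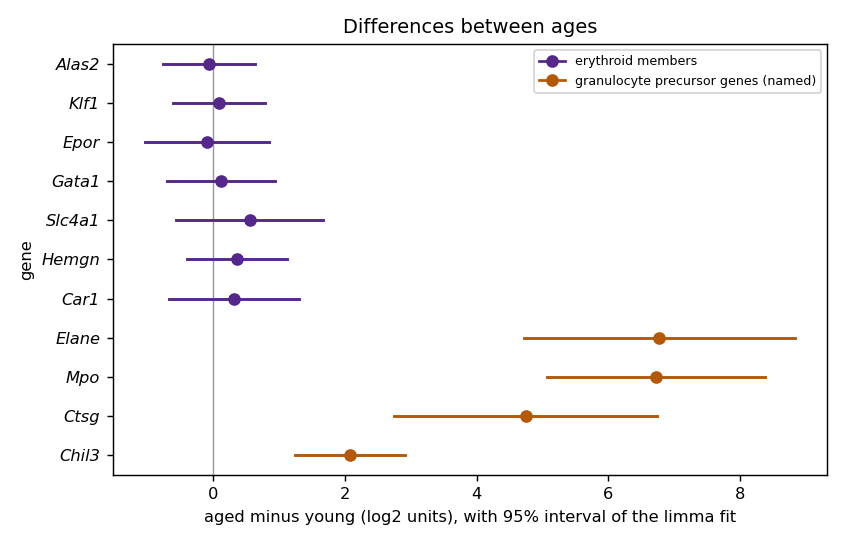
Difference between ages (x axis, aged minus young in log2 units) for the 7 erythroid genes and 4 of the 16 granulocyte precursor genes (y axis). Those 4 are the ones named in the text, picked for the smallest p in limma, and do not stand for their list. The differences of all 16 ran from -0.55 to 6.77. Points are the fitted differences and lines their 95% intervals; all 7 erythroid intervals span 0, with upper bounds of 0.64 to 1.67, while the intervals of Mpo and Elane begin at 5.07 and 4.71 and that of Chil3 at 1.25.

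The 95% intervals give the sizes of difference in deposited level that these arrays still allow. Most readings of the 7 genes lay under the intron control median, so these bounds need not hold for the amount of RNA. Their upper bounds were 0.64 for Alas2, 0.79 for Klf1, 0.85 for Epor and 0.95 for Gata1, and 1.12, 1.30 and 1.67 for Hemgn, Car1 and Slc4a1. A p above the threshold therefore does not show that the levels were equal. The half-widths of the intervals ran from 0.70 for Alas2 to 1.11 for Slc4a1. The intron controls were themselves higher in aged arrays, with medians of 6.76 and 6.68 against 6.25 and 6.62. Young replicate 1, at 6.25, stood apart as the low array, while young replicate 2 was close to aged replicate 2. The median difference of the intron controls between the ages was 0.23. The median of the 7 erythroid genes, 0.12, was below that. With each array centred on its intron controls the median of the 7 was -0.16, and Gata1 and Klf1 turned to -0.16 and -0.19.

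Aged replicate 1 held the highest reading of 5 of the 7 genes (Klf1 and Alas2 being the exceptions), where 28.4% of all probe sets were highest. Within the aged pair, 6 of the 7 were higher in replicate 1, as were 10476 of all 19572 probe sets. The median gap was 0.59 beside 0.05 over all probe sets. Leaving out aged replicate 1 took the median of the 7 differences to -0.084, and leaving out aged replicate 2 took it to 0.41. Macrophage markers were also highest in aged replicate 1 for 8 of 11 genes, and red cell membrane genes for 10 of 18. The exon against intron separation of that array, which bears on how well RNA and labelling worked, was the lowest of the 4 at 0.792, beside 0.819 in aged replicate 2 and 0.849 and 0.823 in the young arrays. The part of these in the erythroid readings was not tested.

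Other genes that serve a red cell were read beside the members. For each further list, counts at an unadjusted p under 0.05 in limma stand beside 3.36% of all probe sets higher and 3.99% lower. Globins carry the oxygen, and the 4 measured here were embryonic or minor forms (Hba-x, Hbb-y, Hbb-bh1 and Hbb-bh2); the adult globins were not analysed here. The globin differences were 0.01 for Hba-x, 0.03 for Hbb-y, -0.03 for Hbb-bh1 and 0.22 for Hbb-bh2, and all 4 genes lay below the intron median on every array. None of the 4 was at an unadjusted p under 0.05.

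Of 7 haem synthesis enzymes, which most cells express at some level, none was at an unadjusted p under 0.05 and the median difference was -0.04. The smallest p belonged to Ppox, the enzyme of the next to last step, with 11.26 and 11.64 on the aged and 8.26 and 11.19 on the young arrays. Its difference of 1.73 ± 0.91 (SE; limma adjusted p of 0.753) came with 1 low array, young replicate 1. Among 12 genes of iron and haem transport the median was 0.18, with none higher and 1 lower at an unadjusted p under 0.05. That gene was Abcb6, a porphyrin transporter, at 4.62 and 4.61 on the aged and 6.06 and 5.59 on the young arrays (-1.21 ± 0.31, SE; limma adjusted p of 0.508). Its readings were all below the intron median of their array.

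Of 18 measured genes of the red cell membrane and blood groups, none was at an unadjusted p under 0.05, 13 were positive and the median difference was 0.23, close to that of the intron controls. On all 4 arrays, 13 of the 18 lay below the intron median. Gypc, the gene of glycophorin C, had the smallest p, with 6.96 and 7.23 on the aged and 6.18 and 6.63 on the young arrays (0.69 ± 0.32, SE; limma adjusted p of 0.712). Of 21 red cell enzymes and maturation genes, 1 was higher and 2 lower at an unadjusted p under 0.05, with a median of -0.11. Sphk1, a sphingosine kinase, differed by 1.10 ± 0.36 (SE), Ube2l6, a conjugating enzyme for the ubiquitin-like protein ISG15, by -1.20 ± 0.30, and Blvrb, biliverdin reductase B, by -1.37 ± 0.35. Their limma adjusted p was 0.603, 0.503 and 0.508.

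**Figure D3:**
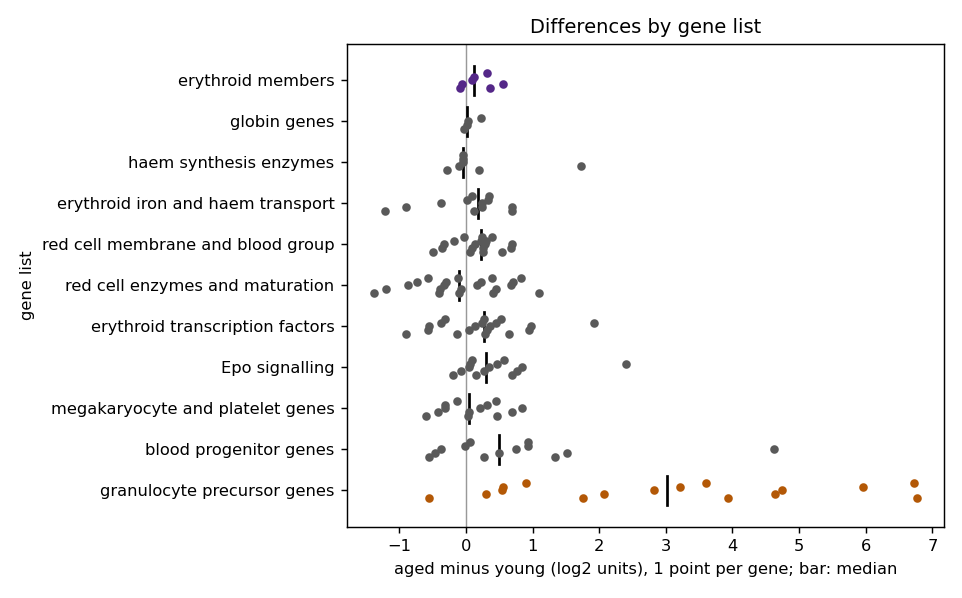
Difference between ages (x axis, aged minus young in log2 units) by gene list (y axis), with 1 point per measured gene and a bar at the list's median. The erythroid members and the red cell lists have medians of -0.11 to 0.30, while the granulocyte precursor genes reach 6.77 with a median of 3.02.

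The regulators that work with GATA1 and EPOR included a few genes with larger differences, and these act outside the erythroid branch as well. Of 19 transcription factors of the erythroid network, 1 was at an unadjusted p under 0.05 and the median difference was 0.27. It was Ikzf1, the Ikaros gene of lymphoid and other blood cells, at 7.57 and 8.36 on the aged and 5.96 and 6.12 on the young arrays (1.92 ± 0.37, SE; limma adjusted p of 0.452). A list of 14 genes held erythropoietin signalling genes and others set beside them, such as Spi1, which is not a part of that pathway. Of the 14 genes, 2 were at an unadjusted p under 0.05 in limma, both higher, with a median of 0.30. Both aged arrays lay above both young ones for 7 of these 14 and below them for 0, beside 18.2% and 18.4% of all probe sets. The aged arrays were on top for 24.2% of the intron controls. Among the 19 transcription factors the same counts were 7 and 5. Spi1 encodes PU.1, the myeloid factor known to oppose GATA1. It was read at 7.50 and 7.90 on the aged and 5.66 and 4.94 on the young arrays, a gap of 2.40 ± 0.37 (SE; limma adjusted p of 0.386). Erfe, the gene of the hormone erythroferrone, which both red cell precursors and skeletal muscle make, was read at 12.49 and 12.25 on the aged and 11.82 and 11.24 on the young arrays (0.84 ± 0.34, SE; limma adjusted p of 0.675).

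Other blood lineages of the marrow were set beside the erythroid genes. Genes of granulocyte precursors, the cells that become neutrophils, had a median difference of 3.02 over 16 measured genes. Of these, 11 were higher and 0 lower at an unadjusted p under 0.05 in limma, beside 3.36% and 3.99% of all probe sets. For 13 of the 16 both aged arrays lay above both young ones, beside 18.2% of all probe sets. None of the 16 passed after adjustment in limma. Mpo, the myeloperoxidase gene, was read at 14.44 and 16.11 on the aged and 7.94 and 9.17 on the young arrays. Its 95% interval was 5.07 to 8.38, and that of the elastase gene Elane was 4.71 to 8.83. Ctsg, the cathepsin G gene, differed by 4.75 ± 0.81 (SE; limma adjusted p of 0.424) and Chil3, a chitinase-like protein of myeloid cells, by 2.08 ± 0.34 (SE; limma adjusted p of 0.415). Readings below the intron median on every array were thus not particular to the erythroid genes. They were found for 6 of the 16 granulocyte genes, Chil3 among them, while 4 of the 16 were above it on every array. Of the 16 granulocyte intervals, 5 lay wholly above all 7 erythroid intervals and the other 11 reached the range of at least the widest-reaching one, that of Slc4a1. The interval of Chil3, for example, began at 1.25. The difference between the lists was not tested as such, and the granulocyte genes were partly known from earlier results of these data.

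Aged replicate 2 held the highest reading of 14 of 16 granulocyte genes and of 1 of 7 erythroid genes, beside 21.3% of all probe sets. Within the aged pair the median gap, replicate 1 minus replicate 2, was -1.58 for granulocyte and 0.59 for erythroid genes, beside 0.05 over all probe sets.

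**Figure D4:**
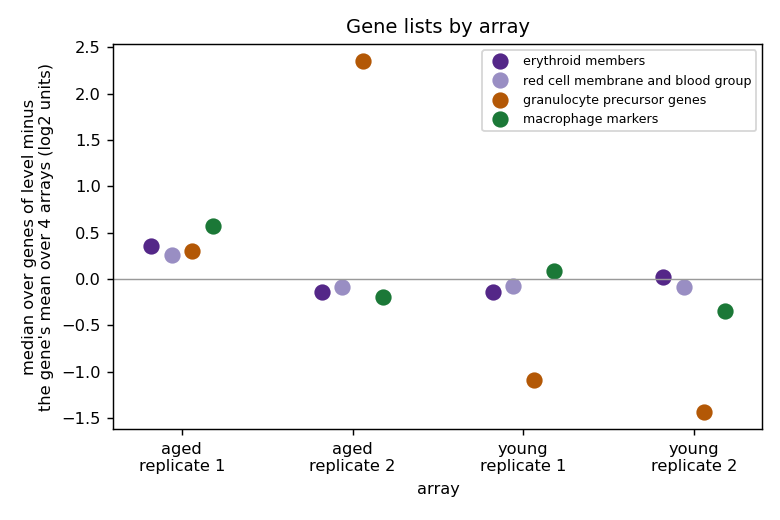
Median over a list's genes of the level minus the gene's own mean over the 4 arrays (y axis, log2 units) on each array (x axis), for 4 gene lists. The granulocyte precursor genes stand at 2.35 on aged replicate 2 and at -1.09 and -1.43 on the young arrays, whereas the erythroid members stay between -0.14 and 0.36, with aged replicate 1 on top.

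Megakaryocyte and platelet genes, the nearest relatives of the erythroid branch, had a median difference of 0.04 over 13 measured genes, with none at an unadjusted p under 0.05. The smallest p was that of F2rl2, a thrombin receptor gene, with 7.58 and 6.98 on the aged and 6.56 and 6.62 on the young arrays (0.69 ± 0.33, SE; limma adjusted p of 0.728). The median of 13 blood progenitor genes was 0.50. At an unadjusted p under 0.05 in limma, beside 3.36% of all probe sets higher and 3.99% lower, 4 of the 13 were higher and none lower. They were the progenitor factor Hlf (1.52 ± 0.30, SE), the granulocyte growth factor receptor gene Csf3r (1.33 ± 0.36), the stem cell factor receptor gene Kit (4.62 ± 1.31) and Runx1 (0.93 ± 0.36), a factor that muscle also makes. Their limma adjusted p was 0.452 to 0.657. Kit stood at 10.87 and 11.42 in aged against 4.37 and 8.68 in young arrays. Csf3r was below the intron median on every array.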

How the data were processed

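Per the submitters' processing notes, the deposited log2 values were made with RMA in the Transcriptome Analysis Console; versions, build and variant: not given in the sources used here. Its 28846 entries covered 4 arrays, with all columns mapped. Names came from the platform annotation, in which 19572 probe sets had 1 gene symbol, and their gene identifiers were all found in the RefSeq table of GRCm38.p6. Controls were 5222 intron and 1324 exon probe sets. The ages were compared in a moderated linear model (limma 3.58.1, R 4.3.3; two-sided, group as sole term), with Benjamini-Hochberg adjustment over all tested probe sets and a threshold of 0.05. The procedure was also run on simulated data with independent errors and shifts larger than any member difference. That run therefore says nothing about differences of the members' size. No filter on low levels was used, and the number of arrays limits the precision. Beside the members, named genes were the globins and, of each further list, up to 4 genes with the smallest unadjusted p under 0.05, or else the 1 with the smallest. Genes whose profile resembled the members were to be named only if the mean member profile ranged over at least 1 log2 unit; it ranged over 0.55. The members and lists were chosen with earlier results of these data known.

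The lists of muscle progenitor, endothelial and macrophage markers served to describe the sample. Their median differences were -0.18, -0.97 and 0.26 over 14, 9 and 11 genes. The endothelial value came with 1 array, young replicate 2, which held the highest reading of 7 of the 9 genes; without it the median was 0.048. Of the muscle genes 2 had an unadjusted p under 0.05, both lower (Megf10 at -1.36 and Myod1 at -1.16), and none of the others, whose smallest p belonged to Cdh5 (-2.56) and Adgre1 (0.76).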

Additional observations from a re-analysis of the deposited data

How the results depend on the processing

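No erythroid gene was at an unadjusted p under 0.05 in limma under any alternative that kept all 7: a second quantile normalization, median centring, a variance prior with a trend or robust, the replicate block, each array left out, averaged probe sets, every table entry, and, added after the data were seen, centring on intron controls. In the main fit 3.36% of all probe sets were higher and 3.99% lower at an unadjusted p under 0.05 in limma. A count of 0 of 7 is near those shares and says little about the members. The filter on dim probe sets kept 2 of the 7, so no median or count could be given there. Leaving out single arrays moved the median from -0.084 to 0.41. The count of members with the aged arrays on top was then 2 to 5, with no share over all probe sets computed beside it. The single differences then ran from -0.15 to 0.78 for Car1, -0.50 to 0.33 for Epor and -0.17 to 0.42 for Gata1. Centring on intron controls gave a median of -0.16, with Gata1 at -0.16 and Klf1 at -0.19. Over all probe sets 0 passed after adjustment (1438 at an unadjusted p under 0.05). This was 2 with the replicate block (Elane and Mpo, with 1422 at an unadjusted p under 0.05), 2 centred on intron controls (the same genes), and 0 to 1 with an array left out (Kit, without young replicate 2). Arrays that share a replicate number did not deviate together (r of -0.05 across genes), so the number is taken as a name only. With 1 array of an age left, that array is assumed to vary like the others.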
